A study of Mus musculus with 6 samples.

Results

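Matrix metalloproteinases (MMPs), ADAMTS proteases and the tissue inhibitors of metalloproteinases (TIMPs) were examined in macrophages sorted from the omentum (OM) and from mesenteric adipose tissue (MY) of mice. The members were taken by gene symbol, as every symbol that starts with Mmp, Timp or Adamts followed by a number. The ADAMTS-like genes (Adamtsl) lack the protease and were not taken. This gave 46 of the 23946 genes in the deposited table, made up of 23 MMPs, 4 TIMPs and 19 ADAMTS genes. Of these, 24 had a level of at least 1 FPKM (fragments per kilobase of transcript and per 1000000 fragments) in at least 1 library, against 13064 genes in all, and only these entered the counts of differences.

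The 6 libraries were OM 0h, OM 24h, OM 7d, MY 0h, MY 24h and MY 7d, with 1 library per condition, and series of 3 values below follow the order 0 h, 24 h and 7 d. The 0h libraries came from naive mice, and the others from mice 24 h or 7 d after an intraperitoneal injection of ID8, a mouse ovarian carcinoma line. All animals were female C57BL/6 mice aged 6 to 8 weeks, with no transgene or deletion named, and the cells were sorted as CD45+CD11b+F4/80+. Tissues of 9 mice were processed as 3 groups of 3, with cells pooled within a group, so a value describes a pool and not 1 animal. No condition had a second library, so there was no spread between replicates and no test between conditions was made. A library from mice injected with vehicle alone was not analysed here.

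MMPs are zinc-dependent proteases that cut collagens, gelatin, elastin and other matrix proteins, as well as chemokines and growth factors. Most are made as inactive precursors in which a cysteine of the propeptide blocks the zinc ion, and they become active when the propeptide is removed. TIMPs bind the active site and hold the enzymes in check. ADAMTS proteases carry a related catalytic domain followed by thrombospondin repeats, and cut proteoglycans, procollagens and other matrix glycoproteins. Macrophages are a known source of several MMPs, neutrophils store others in granules, and fibroblasts and mesothelial cells make many members of all 3 families. Omental milky spots, where ovarian carcinoma cells settle early, hold all of these cell types.

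The zinc-binding site is shown because it is the part of the coding sequence that the proteases of the 2 families share and the TIMPs lack. Its coding DNA was read from the NCBIM37 (mm9) genome at the exons of the GENCODE M1 annotation, 5′ to 3′ on the coding strand, and capitals mark the codons of the 3 histidines that hold the zinc ion.
Mmp8, chr9:7563086-7563118, plus strand: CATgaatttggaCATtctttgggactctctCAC
Mmp9, chr2:164776633-164776665, plus strand: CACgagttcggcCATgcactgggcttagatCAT
Mmp14, chr14:55056464-55056496, plus strand: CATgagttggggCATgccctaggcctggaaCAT
Mmp11, chr10:75389676-75389708, minus strand: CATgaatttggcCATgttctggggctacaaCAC
Mmp23, chr4:155025637-155025669, minus strand: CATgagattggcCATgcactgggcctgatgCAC
Adamts1, chromosome 16, minus strand, in 2 exons: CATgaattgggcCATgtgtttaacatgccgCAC
Adamts2, chromosome 11, plus strand, in 2 exons: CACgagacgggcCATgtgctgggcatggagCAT
Adamts10, chromosome 17, plus strand, in 2 exons: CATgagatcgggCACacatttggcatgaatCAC
All 23 MMPs and all 19 ADAMTS genes held the 3 histidine codons and the glutamate codon of the site, and none of the 4 TIMPs did. The site lay within 1 exon in all 23 MMPs and was split between 2 exons in all 19 ADAMTS genes. All 23 MMPs also had the glycine codon of the usual site, as did 13 of the 19 ADAMTS genes, the exceptions being Adamts1, Adamts4, Adamts8, Adamts9, Adamts15 and Adamts20. The exact propeptide motif around the blocking cysteine was found in 19 of 23 MMPs and not in Mmp11, Mmp17, Mmp23 and Mmp25, and in 0 of 19 ADAMTS genes.

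Pan-leukocyte Ptprc (105.8 to 208.3 FPKM), Itgam (27.8 to 150.9 FPKM), which encodes CD11b, and Emr1 (20.5 to 135.0 FPKM), which encodes F4/80, were present in all 6 libraries. Markers of cells outside the gate were present too, and the omental and mesenteric libraries stood apart in them. The 8 neutrophil genes of 9 listed that the table holds summed to 7452.1 to 19773.5 FPKM in the omental libraries and 228.7 to 886.3 FPKM in the mesenteric ones. The 7 fibroblast genes summed to 236.8 to 1206.1 FPKM against 2.28 to 3.10 FPKM, and the 8 mesothelial genes to 99.3 to 1015.6 FPKM against 0.92 to 1.33 FPKM. The 4 B cell genes were also higher in the omentum at each time, at 902.7 to 3957.5 FPKM against 521.6 to 1532.1 FPKM, although these ranges overlap. The T cell and NK cell lists ran the other way, at 17.8 to 122.9 FPKM against 491.8 to 1012.5 FPKM and at 5.83 to 212.1 FPKM against 606.7 to 1456.4 FPKM. Among the defining markers of fibroblasts and mesothelial cells, Pdgfra was listed at 0 in MY 24h, Pdpn in MY 24h and MY 7d, Upk1b in MY 0h, Lrrn4 in MY 24h, and Wt1 in MY 0h and MY 7d. The 7 macrophage genes of 8 listed in the table summed to 545.1 to 4753.2 FPKM in the omentum and 564.0 to 1362.8 FPKM in the mesentery. The libraries' FPKM summed to 526886.9 to 713863.0, and their depth, estimated from the steps between low values, was 0.856 to 1.49 times that of MY 0h.

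The omental libraries had more members at 1 FPKM or above than the mesenteric ones. In time order the number was 15, 16 and 22 in the omentum and 11, 13 and 10 in the mesentery. Over all genes the number was 11178, 11441 and 12099 in the omentum and 11247, 11284 and 11043 in the mesentery. The split by tissue below was not counted over all genes. Of the 24 members at this level somewhere, 9 held it in every library, 11 reached it only in omental libraries and 0 only in mesenteric ones, while 11 reached 10 FPKM in some library. Of the 11 omental ones, 7 (Mmp3, Mmp24, Mmp28, Adamts4, Adamts7, Adamts9 and Adamts15) reached 1 FPKM only in OM 7d, with 1.07 to 1.46 FPKM there, so these entered the counts through the library in which they were highest. The deepest library by the estimate above was also OM 7d.

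**Figure D1:**
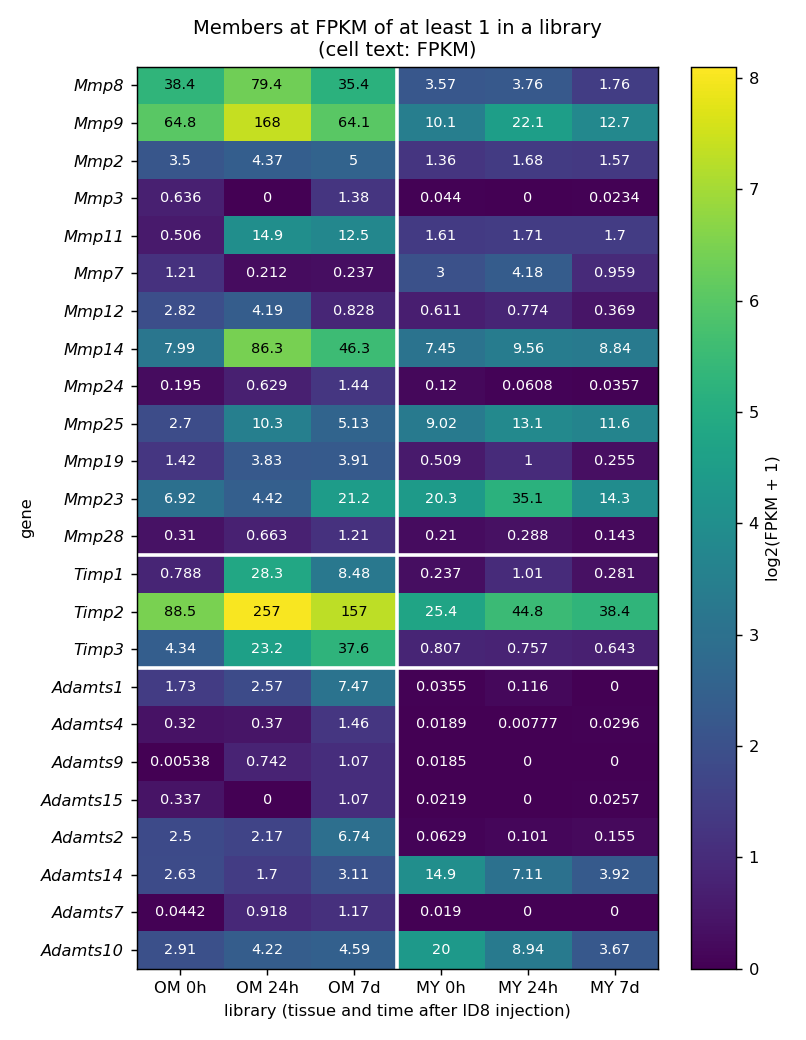
Levels of the 24 members with at least 1 FPKM in some library, as log2(FPKM + 1), with 1 column per library (1 library per condition) and members grouped by role. Colour runs from dark (low) to bright (high) and each cell carries its FPKM. Timp2, Mmp9 and Mmp14 are the brightest cells in OM 24h, at 256.8, 167.7 and 86.3 FPKM.

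Summed over each family, the omental libraries held more MMP and TIMP message at each time than the mesenteric ones. The MMP sum was 132.0, 378.2 and 200.9 FPKM in the omentum and 58.8, 93.8 and 55.2 FPKM in the mesentery. The TIMP sum was 93.8, 308.3 and 203.8 FPKM in the omentum and 26.5, 46.6 and 39.4 FPKM in the mesentery. Both sums were highest at 24 h in each tissue, and their tissue ranges did not overlap. The ratio of summed MMP to summed TIMP was 1.41, 1.23 and 0.986 in the omentum and 2.22, 2.01 and 1.40 in the mesentery, and it was lower at each later time in both tissues. Because it is a ratio within a library, this value does not depend on the scaling between libraries. The ADAMTS sum ran differently, at 12.2, 13.2 and 30.1 FPKM in the omentum and 36.5, 17.2 and 8.87 FPKM in the mesentery, so that the mesentery was higher in naive mice and at 24 h and the omentum at 7 d. In these pooled cells, fewer cells of a type and less RNA per cell cannot be told apart.

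**Figure D2:**
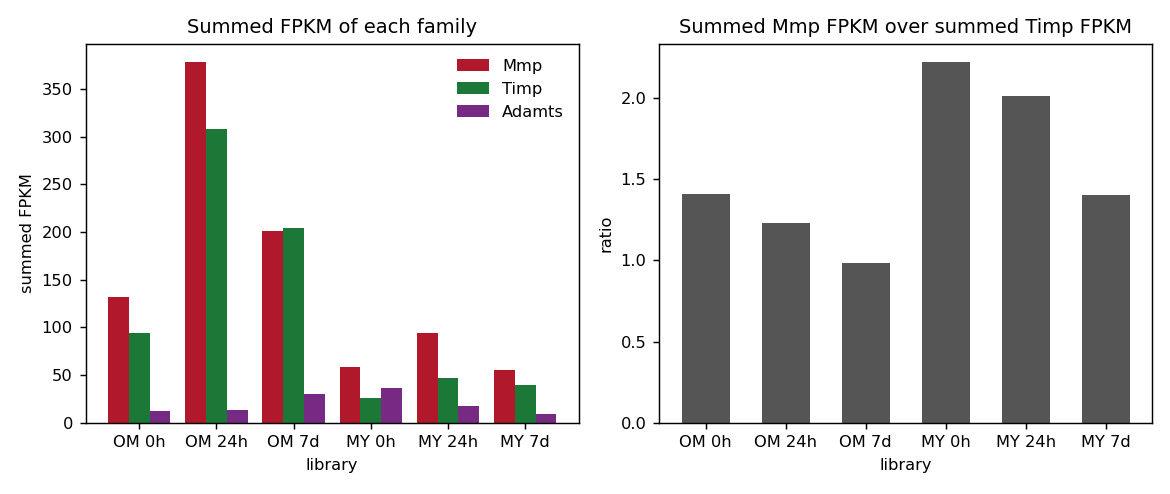
Left, summed FPKM of the 23 MMPs, 4 TIMPs and 19 ADAMTS genes in each of the 6 libraries, and right, summed MMP over summed TIMP FPKM, as bars from 0 with 1 library per bar and no error. OM 24h has the highest MMP and TIMP sums (378.2 and 308.3 FPKM), and MY 0h the highest ADAMTS sum (36.5 FPKM) and ratio (2.22).

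Differences between libraries were taken on the log2(FPKM + 1) scale, which understates changes of low genes, and a member was counted where it differed by at least 2-fold. In naive mice, 7 of 24 members were higher in the omentum (Mmp8, Mmp9, Mmp12, Timp2, Timp3, Adamts1 and Adamts2) and 4 were lower (Mmp23, Mmp25, Adamts10 and Adamts14). Of all genes tested, 8.18% were higher and 8.05% lower. The median difference was 0.38 over the members and 0.01 over all genes. At 24 h, 12 members were higher in the omentum and 3 lower (Mmp7, Mmp23 and Adamts14), with 13.9% and 10.2% of all genes, and medians of 0.97 and 0.0027. At 7 d, 17 were higher and 1, Mmp25, was lower, with 14.1% and 4.99% of all genes, and medians of 1.23 and -0.01. These counts lean to the omentum by construction, because 11 of the 24 members entered only through omental libraries, among them Mmp12, Timp3, Adamts1 and Adamts2 of the 7 naive calls. With 1 FPKM required in all 6 libraries, 9 members were left, of which 3 were higher and 4 lower in the naive omentum.

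Within the omentum, 8 of 24 members were higher in OM 24h than in OM 0h (Mmp8, Mmp9, Mmp11, Mmp14, Mmp25, Timp1, Timp2 and Timp3) and 0 were lower. The background was 11.9% of all genes higher and 6.45% lower, and the medians were 0.44 for members and 0.00 for all genes. In OM 7d against OM 0h, 11 members were higher (Mmp11, Mmp14, Mmp19, Mmp23, Mmp24, Timp1, Timp3, Adamts1, Adamts2, Adamts7 and Adamts9) and 1 lower (Mmp12), with 11.0% and 1.96% of all genes, and medians of 0.86 and -0.0044. Of these 11, Mmp24, Adamts7 and Adamts9 entered only through OM 7d, and with 1 FPKM required in all 6 libraries 2 of 9 members were higher. Between the injected omental libraries, 5 members were higher in OM 7d than in OM 24h (Mmp3, Mmp23, Adamts1, Adamts2 and Adamts15) and 4 lower (Mmp8, Mmp9, Mmp12 and Timp1), with 7.03% and 4.52% of all genes, and medians of 0.17 and 0.05. Of the 5, Mmp3 and Adamts15 entered only through OM 7d. With 1 FPKM required in all 6 libraries, the median of the members was -0.71. The 3 omental libraries enter these comparisons more than once, so the counts are not separate evidence.

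Within the mesentery, few members differed. Only Mmp9 was at least 2-fold higher and only Adamts10 lower in MY 24h against MY 0h, with 2.80% and 1.52% of all genes, and medians of 0.07 and 0.0021. In MY 7d against MY 0h, 0 members were higher and 3 were lower (Mmp7, Adamts10 and Adamts14), with 0.498% and 2.29% of all genes, and medians of -0.03 and 0.02.

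**Figure D3:**
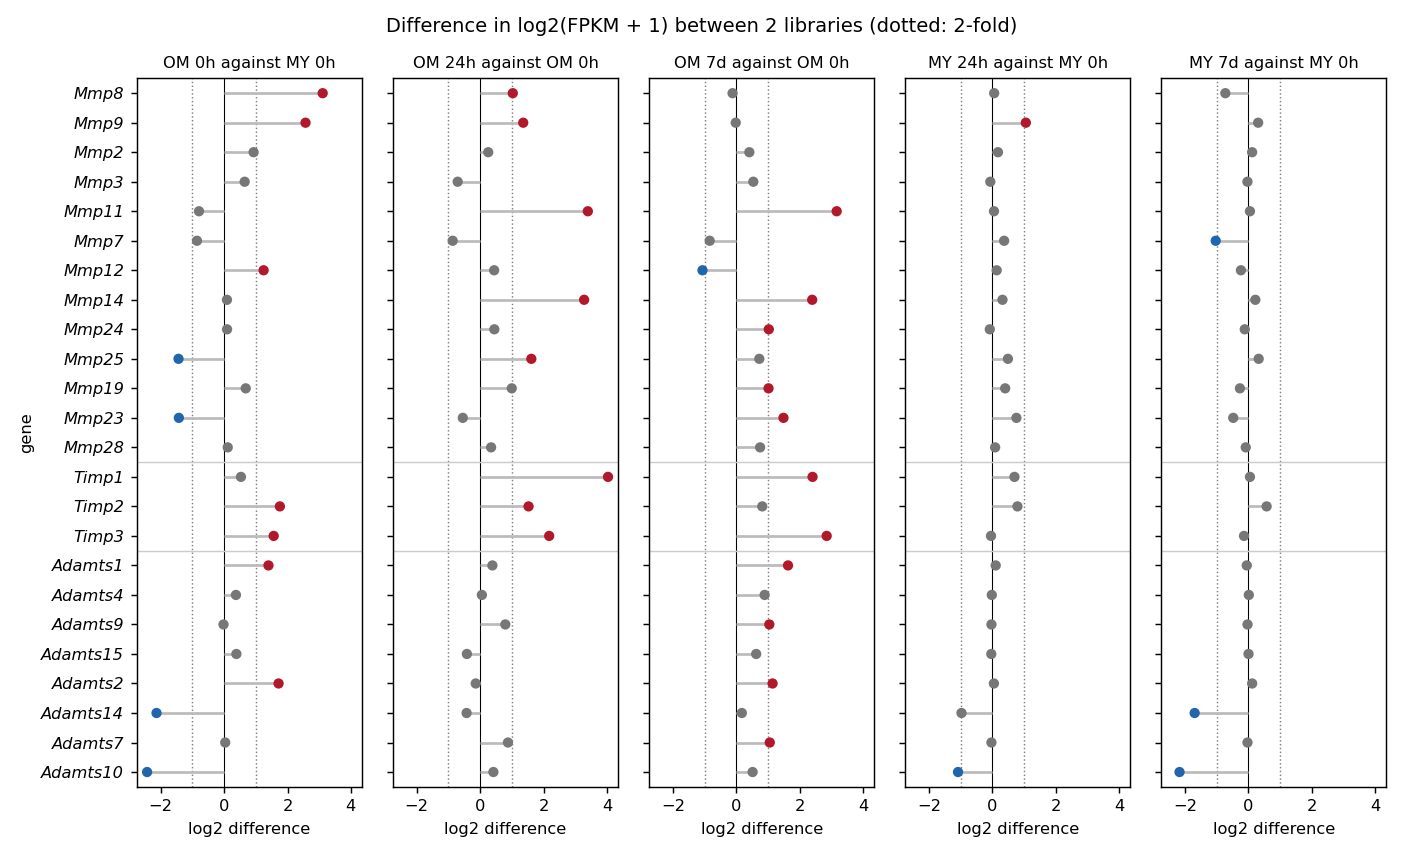
Difference between libraries on the log2(FPKM + 1) scale for the 24 members in 5 comparisons (the naive tissues, and each later time against 0 h in each tissue), 1 library on each side, with the 2-fold limits drawn. In OM 24h against OM 0h, Timp1 (4.03), Mmp11 (3.4) and Mmp14 (3.28) lie farthest from 0, whereas the mesenteric comparisons reach 1.06 (Mmp9) and -2.17 (Adamts10).

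Across all time points, 5 of 24 members were at least 2-fold higher in every omental library than in every mesenteric one (Mmp8, Mmp9, Timp3, Adamts1 and Adamts2), and 0 were lower in this way, against 2.73% and 2.12% of all genes. Timp3, Adamts1 and Adamts2 entered only through omental libraries, so this count also leans to the omentum by construction. The libraries of a tissue are different times and not replicates. Without the 0h libraries the count was 11, without the 7d libraries it was 8, of which 6 were higher and 2 (Mmp23 and Adamts14) lower, and without the 24h libraries it was 6. By the weaker measure of no overlap between the tissues, 13 members were higher in the omentum and 1 (Adamts14) lower, with 16.7% and 17.7% of all genes. Among these 13, Mmp12, Mmp24, Mmp28, Adamts4 and Adamts7 likewise entered only through omental libraries, besides Timp3, Adamts1 and Adamts2.

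Among the collagenases, which cut fibrillar collagens, only Mmp8 was well detected. Mmp8, the collagenase stored in neutrophil granules (chr9:7558429-7568486, NCBIM37, plus strand), stood at 38.4, 79.4 and 35.4 FPKM in the omentum and at 3.57, 3.76 and 1.76 FPKM in the mesentery. Every omental library was above every mesenteric one, and the naive tissues differed by 3.11 on the log2 scale, or 10.8 times in FPKM. In OM 24h, Mmp8 was 1.03 above OM 0h, and in OM 7d it was 1.14 below OM 24h. Mmp13, the main rodent interstitial collagenase, reached 0.671 FPKM in OM 24h, and Mmp1a and Mmp1b were listed at 0 in every library.

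Of the gelatinases, Mmp9 was the highest MMP in each omental library. Mmp9 (gelatinase B, chr2:164766280-164781350, plus strand), held in neutrophil granules and also made by macrophages, stood at 64.8, 167.7 and 64.1 FPKM in the omentum and at 10.1, 22.1 and 12.7 FPKM in the mesentery. Its 24 h library was the highest in both tissues, by 1.36 over 0 h among the omental libraries and 1.06 among the mesenteric ones, and it was within 0.31 of the naive level at 7 d in both. Mmp2 (gelatinase A), a product of fibroblasts that MMP14 activates, was lower, at 3.50, 4.37 and 5.0 FPKM in the omentum and 1.36, 1.68 and 1.57 FPKM in the mesentery. The tissue ranges of Mmp2 did not overlap, and the difference was 0.93 in naive mice, 1.0 at 24 h and 1.23 at 7 d.

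Neutrophil markers moved with Mmp8 and Mmp9 in part. The mean log2(FPKM + 1) of the neutrophil list was 7.92, 9.26 and 8.93 in the omentum and 5.71, 5.41 and 2.89 in the mesentery. In MY 7d against MY 0h the genes of the list split. Of the 8, 5 were at least 2-fold lower (S100a8, S100a9, Ngp, Camp and Ltf), against 2.29% of all genes. Retnlg was higher, at 163.1 against 40.5 FPKM, as were 0.498% of all genes, and Csf3r and Cxcr2 were within 2-fold. In the same comparison Mmp9 was 0.31 higher and Mmp8 0.73 lower. In OM 7d against OM 24h the list was 0.33 lower, and Mmp8 and Mmp9 were 1.14 and 1.37 lower. Divided by S100a8, a neutrophil granule gene, Mmp9 gave ratios of 0.0215, 0.0214 and 0.00765 in the omentum and 0.0351, 0.101 and 0.397 in the mesentery. Divided by Retnlg, another gene of the list, it gave 0.162, 0.192 and 0.128 in the omentum and 0.249, 0.0840 and 0.0781 in the mesentery, so the mesenteric ratio ran in opposite directions with these markers. The part of neutrophil RNA in the levels of Mmp8 and Mmp9 was not tested.

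**Figure D4:**
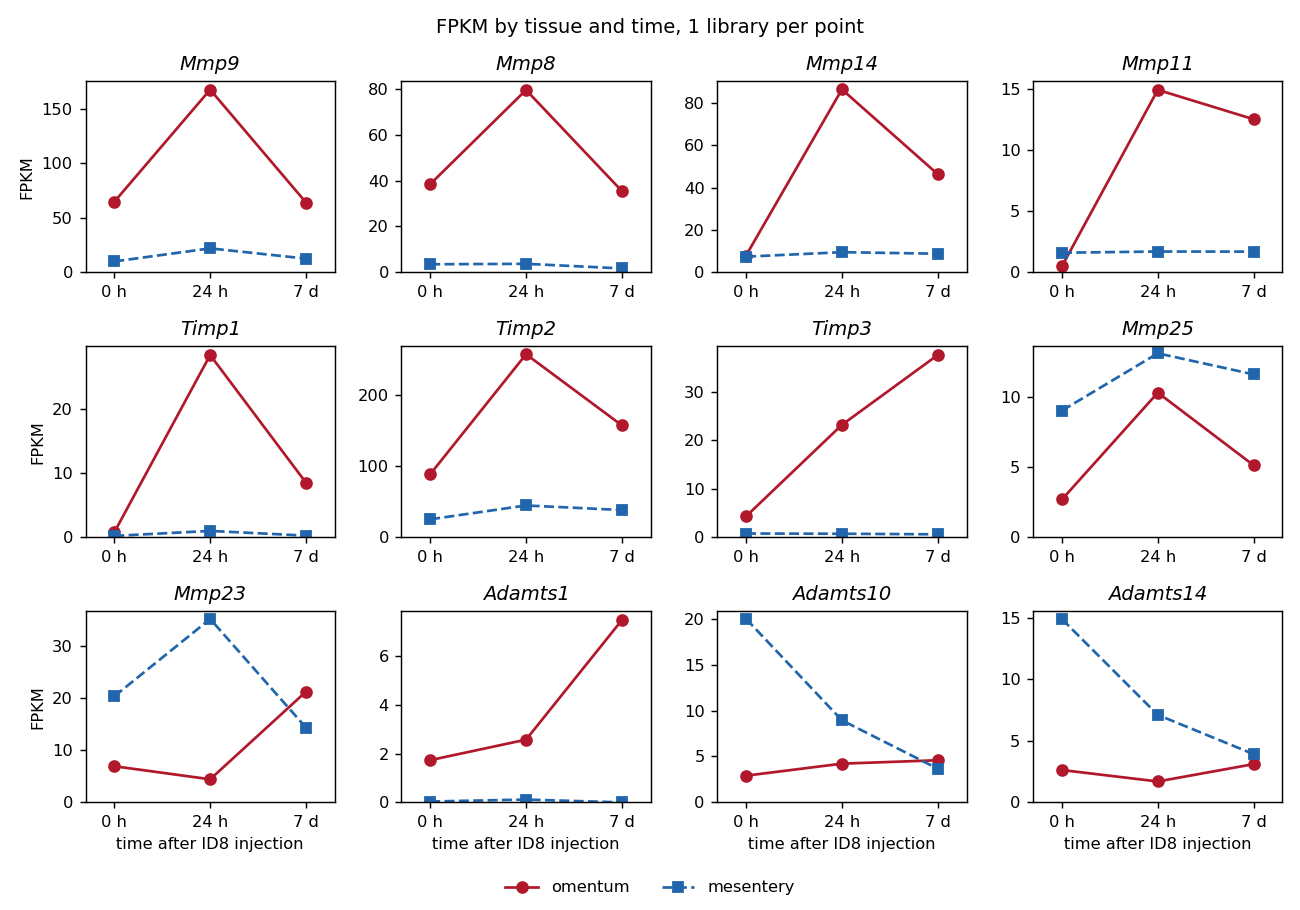
FPKM of 12 members by time (0 h, 24 h and 7 d) in the omentum and the mesentery, 1 library per point and no error, with a linear axis of its own from 0 in each panel. Mmp14 goes from 7.99 to 86.3 FPKM in the omentum at 24 h and stays between 7.45 and 9.56 FPKM in the mesentery, while Adamts10 is highest in MY 0h at 20.0 FPKM.

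The membrane-type MMPs act at the cell surface, and Mmp14 showed one of the widest differences between the omental libraries. Mmp14 (MT1-MMP, chr14:55050441-55060095, plus strand), a collagenase that also activates MMP2, stood at 7.99, 86.3 and 46.3 FPKM in the omentum and at 7.45, 9.56 and 8.84 FPKM in the mesentery. The naive tissues were near each other, by 0.09 in favour of the omentum as deposited and by 0.13 in favour of the mesentery after rescaling each library to one sum. After injection the omental level was 10.8 times (24 h) and 5.80 times (7 d) that of OM 0h, and the mesenteric level 1.28 and 1.19 times that of MY 0h. The macrophage list was also higher in OM 24h, by 2.11 in mean log2 over OM 0h, but it was 0.41 lower in OM 7d, where Mmp14 was 2.4 higher. Divided by Csf1r, the receptor that marks the macrophage lineage, Mmp14 gave 0.0606, 0.151 and 0.451 in the omentum and 0.0616, 0.0305 and 0.0460 in the mesentery. The mesothelial list was higher in both injected omental libraries, by 2.81 and 3.08 in mean log2 over OM 0h. The part of mesothelial or ID8 RNA in the level of Mmp14 was not tested.

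Mmp25 (leukolysin), a lipid-anchored enzyme known from leukocytes, was lower in the naive omentum than in the mesentery. It stood at 2.70, 10.3 and 5.13 FPKM in the omentum and 9.02, 13.1 and 11.6 FPKM in the mesentery, with the difference between tissues at -1.44, -0.32 and -1.04 in time order. Mmp24, a membrane-type enzyme known mainly from the nervous system, was listed at 0.195, 0.629 and 1.44 FPKM in the omentum and at 0.120, 0.0608 and 0.0357 FPKM in the mesentery. Mmp24 shares 637 exonic bases with the lincRNA BC029722 on the opposite strand, which had 30.4 to 39.1 FPKM, and whether the counting used strand is not given in the sources used here, so reads of these genes cannot be told apart. Of the other membrane-type genes, Mmp15 reached 0.721 FPKM and Mmp17 0.620 FPKM at most, and neither they nor Mmp16 reached 1 FPKM in a library.

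Among the stromelysins, only Mmp11 was found at more than 2 FPKM. Mmp11 (stromelysin-3, chr10:75385967-75400678, minus strand), which furin activates inside the cell and which is known from the stroma of tumours, stood at 0.506, 14.9 and 12.5 FPKM in the omentum. In the mesentery it was at 1.61, 1.71 and 1.70 FPKM, between the naive and the injected omental values. Its omental level was thus 29.4 times the naive level at 24 h and 24.8 times at 7 d. OM 7d was 0.23 below OM 24h on the log2 scale as deposited and 0.10 above it after rescaling to one sum, so the order of these libraries depends on the scaling. Mmp3 (stromelysin-1) was at 0.636 and 1.38 FPKM in OM 0h and OM 7d, at 0.0440 and 0.0234 FPKM in MY 0h and MY 7d, and listed at 0 in both 24 h libraries. Mmp3 and Mmp10 share 65 transcript stretches of 75 bases, so low values of Mmp3 and Mmp10 are uncertain.

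Mmp12, the macrophage elastase, was low for a gene of that name. It stood at 2.82, 4.19 and 0.828 FPKM in the omentum and at 0.611, 0.774 and 0.369 FPKM in the mesentery, so each tissue had its lowest value at 7 d and the tissues did not overlap. Mmp7 (matrilysin), known from epithelia and macrophages, ran the other way between tissues, at 1.21, 0.212 and 0.237 FPKM in the omentum and 3.00, 4.18 and 0.959 FPKM in the mesentery. Only at 7 d in the mesentery did Mmp7 fall within the omental range.

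Mmp23, a membrane protease without the usual propeptide motif, was the highest MMP in each mesenteric library. Mmp23 (chr4:155024764-155027493, minus strand) stood at 6.92, 4.42 and 21.2 FPKM in the omentum and 20.3, 35.1 and 14.3 FPKM in the mesentery. The omental level was below the mesenteric one in naive mice (-1.43) and at 24 h (-2.74), and above it at 7 d (0.54), so the tissues overlapped. Mmp19, a broadly expressed enzyme that cuts basement membrane proteins, was at 1.42, 3.83 and 3.91 FPKM in the omentum and 0.509, 1.0 and 0.255 FPKM in the mesentery. Mmp28 (epilysin) was at 0.310, 0.663 and 1.21 FPKM in the omentum and 0.210, 0.288 and 0.143 FPKM in the mesentery. Mmp19 shares 789 exonic bases with 1110012D08Rik on the opposite strand, and Mmp28 shares 465 with 1700020L24Rik.

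The make-up of the MMP message differed between the tissues. Mmp8 and Mmp9 together held 78.2%, 65.3% and 49.5% of the summed MMP FPKM in the omentum and 23.2%, 27.6% and 26.3% in the mesentery. Mmp14 held 6.06%, 22.8% and 23.1% in the omentum and 12.7%, 10.2% and 16.0% in the mesentery. Without Mmp8 and Mmp9, the MMP sum was 28.8, 131.1 and 101.4 FPKM in the omentum and 45.2, 67.9 and 40.7 FPKM in the mesentery, so the order of the naive tissues was the opposite of that with them.

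Among the inhibitors, Timp2 was the highest of all 46 members in every library. Timp2 (chr11:118162383-118217054, minus strand), which blocks MMPs and also joins MMP14 and pro-MMP2 in the complex that activates MMP2, stood at 88.5, 256.8 and 157.1 FPKM in the omentum and at 25.4, 44.8 and 38.4 FPKM in the mesentery. It held 77.1% to 97.5% of the TIMP sum, the tissues did not overlap, and the omentum was higher by 1.76, 2.49 and 2.0 in time order. Within each tissue the order of the times was 24 h, then 7 d, then naive. The ratio of Mmp14 to Timp2 within a library was 0.0903, 0.336 and 0.295 in the omentum and 0.293, 0.213 and 0.230 in the mesentery, so it was lowest in OM 0h. Divided by Csf1r, Timp2 gave 0.671, 0.451 and 1.53 in the omentum and 0.210, 0.143 and 0.200 in the mesentery, without overlap.

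Timp1 had the widest difference of the 24 members between OM 24h and OM 0h on the log2(FPKM + 1) scale, although with a pseudocount of 5 Mmp14 was wider (2.81 against 2.52). Timp1 (chrX:20447292-20451861, plus strand), a secreted inhibitor that inflammatory signals are known to induce and that binds pro-MMP9, stood at 0.788, 28.3 and 8.48 FPKM in the omentum and 0.237, 1.01 and 0.281 FPKM in the mesentery. OM 24h was 35.9 times OM 0h in FPKM, or 4.03 on the log2(FPKM + 1) scale, and OM 7d was 10.8 times OM 0h. The mesentery also had its highest value at 24 h, at 4.25 times MY 0h, but with 0.70 on the log2 scale this was under the 2-fold limit because both values are low. Timp1 lies inside Syn1 on the opposite strand, and the 2 genes share 0 exonic bases.

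Timp3, which binds to the matrix and also inhibits ADAM17 and the aggrecanases, differed between the tissues at every time. Timp3 (chr10:85763117-85812251, plus strand) stood at 4.34, 23.2 and 37.6 FPKM in the omentum and at 0.807, 0.757 and 0.643 FPKM in the mesentery. The omental values were higher at each later time, the mesenteric values stayed under 1 FPKM, and the difference between tissues was 1.56, 3.78 and 4.55 in time order. On this scale the last was the widest of the 24 members, but with a pseudocount of 0.1 Adamts1 was wider at 7 d (6.24 against 5.66). Timp3 shares 1733 exonic bases with Syn3 on the opposite strand, which had 0.210 to 0.834 FPKM. Timp4 reached 0.602 FPKM at most.

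Mesothelial markers were higher in the same omental libraries as Timp1, Timp3 and Mmp11. The mean log2(FPKM + 1) of the 8 mesothelial genes was 3.42, 6.22 and 6.49 in the omentum. In the mesentery this mean was 0.15, 0.15 and 0.21. Relative to the naive omentum, 7 of 8 genes exceeded the 2-fold limit upward at 24 h, against 11.9% of all genes. At 7 d, 8 of 8 did so, against 11.0%. All 8 stayed under 1 FPKM in the mesentery, so they passed the filter only through omental libraries. Divided by Krt19, the most abundant mesothelial marker in the injected omentum, Timp3 gave 0.171, 0.0571 and 0.108 in the omentum, Timp1 gave 0.0310, 0.0697 and 0.0243, and Mmp11 gave 0.0199, 0.0366 and 0.0359. In the mesentery, where these markers were near 0, Mmp11 was still at 1.61 to 1.71 FPKM. The macrophage list was also higher at 24 h than at 0 h, by 2.11 in the omentum and 1.21 in the mesentery. In OM 7d against OM 24h it was 2.52 lower, while the mesothelial list was 0.27 higher. Timp1 was 1.63 lower, Timp3 0.68 higher and Mmp11 0.23 lower in that comparison. The study detected ID8 cells in the omentum by staining for CK8/18, the keratins that Krt8 and Krt18 encode. In the injected omentum, mesothelial and ID8 RNA therefore cannot be told apart by these keratin genes. The part of mesothelial, ID8 or macrophage RNA in the omental levels of Timp1, Timp3 and Mmp11 was not tested.

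**Figure D5:**
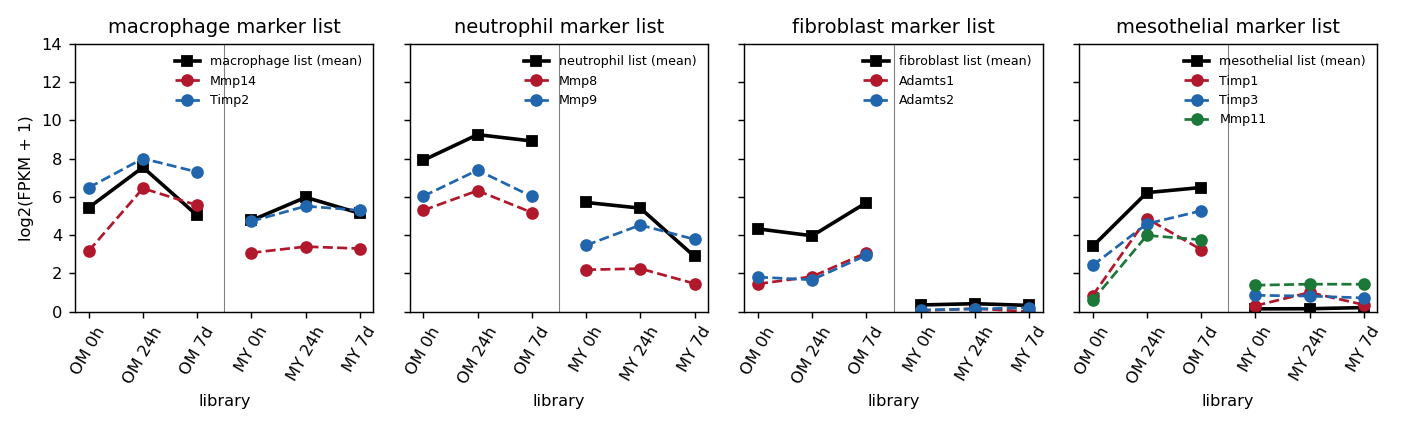
Mean log2(FPKM + 1) of 4 marker lists (black squares) and the log2(FPKM + 1) of members shown beside them (coloured points) in the 6 libraries, 1 library per point, with lines joining the times of a tissue. The fibroblast and mesothelial lists lie at 3.42 to 6.49 in the omental libraries and at 0.15 to 0.42 in the mesenteric ones.

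Of the 7 ADAMTS proteases listed as cutting proteoglycans such as versican and aggrecan, 4 reached 1 FPKM, each of them only in omental libraries and with its highest value at 7 d. Adamts1 (chr16:85794072-85803358, minus strand), a versican protease, stood at 1.73, 2.57 and 7.47 FPKM in the omentum, at 0.0355 and 0.116 FPKM in MY 0h and MY 24h, and was listed at 0 in MY 7d. Its omental values were above the mesenteric ones by 1.40 in naive mice, 1.68 at 24 h and 3.08 at 7 d. Adamts4 (aggrecanase-1) was at 0.320, 0.370 and 1.46 FPKM in the omentum and 0.0189, 0.00777 and 0.0296 FPKM in the mesentery. Adamts9 was at 0.00538, 0.742 and 1.07 FPKM in the omentum, at 0.0185 FPKM in MY 0h and listed at 0 in the other mesenteric libraries. Adamts9 shares 1381 exonic bases with A730049H05Rik and 424 with Gm15737, both on the opposite strand. Adamts15 was at 0.337 FPKM in OM 0h, listed at 0 in OM 24h and at 1.07 FPKM in OM 7d, and was at 0.0219 and 0.0257 FPKM in MY 0h and MY 7d and listed at 0 in MY 24h. Adamts5 and Adamts8 reached 0.709 and 0.629 FPKM at most, and Adamts20 did not reach 1 FPKM.

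The procollagen N-propeptidases, which trim fibrillar procollagens before they assemble, split by tissue. Adamts2 (chr11:50415586-50621075, plus strand), which acts on type I procollagen, stood at 2.5, 2.17 and 6.74 FPKM in the omentum and at 0.0629, 0.101 and 0.155 FPKM in the mesentery, and was higher in the omentum by 1.72, 1.53 and 2.74 in time order. Adamts14, its close relative, was the reverse, at 2.63, 1.70 and 3.11 FPKM in the omentum and 14.9, 7.11 and 3.92 FPKM in the mesentery. Adamts14 was the only one of the 24 whose mesenteric libraries all lay above the omental ones, and the difference was -2.13 in naive mice, -1.59 at 24 h and -0.26 at 7 d.

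Adamts10, which is known to bind fibrillin microfibrils, was the highest ADAMTS gene in MY 0h and, like Adamts14, was lower at each later time in the mesentery. Adamts10 (chr17:33661149-33690727, plus strand) stood at 2.91, 4.22 and 4.59 FPKM in the omentum and 20.0, 8.94 and 3.67 FPKM in the mesentery. In MY 7d, Adamts10 was 2.17 and Adamts14 1.69 below MY 0h, while in OM 7d they were 0.52 and 0.18 above OM 0h. Together they held 95.8%, 93.2% and 85.5% of the ADAMTS sum in the mesentery, and 45.3%, 44.7% and 25.6% in the omentum. The list of 4 NK cell genes had mean log2 values of 7.71, 7.02 and 6.51 in the mesentery and 5.23, 1.22 and 4.16 in the omentum, and its part in these levels was not tested. Adamts7, which cuts cartilage oligomeric matrix protein, was at 0.0442, 0.918 and 1.17 FPKM in the omentum, at 0.0190 FPKM in MY 0h and listed at 0 in MY 24h and MY 7d. Adamts7 shares 122 exonic bases with Tbc1d2b on the opposite strand, which had 5.21 to 17.9 FPKM.

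Fibroblast markers, like Adamts1 and Adamts2, were higher in the omental than in the mesenteric libraries. The fibroblast list had mean log2 values of 4.33, 3.97 and 5.71 in the omentum and of 0.35, 0.42 and 0.33 in the mesentery. In OM 0h, 7 of 7 genes were at least 2-fold higher than in MY 0h, against 8.18% of all genes. All but Dcn passed the filter only through omental libraries, so this count leans to the omentum by construction. Adamts2 divided by Col1a2, a subunit of its substrate, gave 0.117, 0.126 and 0.0903 in the omentum, values within a factor of 1.5 of one another, and 0.326, 0.256 and 0.837 in the mesentery, where Col1a2 was at 0.186 to 0.394 FPKM. Adamts1 divided by Dcn, a fibroblast proteoglycan gene, gave 0.00916, 0.0236 and 0.00956. In OM 24h against OM 0h, Adamts1 was 0.39 higher, Adamts2 0.14 lower and the fibroblast list 0.36 lower. The 4 genes of mural cells (vessel wall) also stood apart, at 16.8 to 31.7 FPKM in the omentum and 0.957 to 1.53 FPKM in the mesentery. The part of fibroblast or mural cell RNA in these levels was not tested.

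The other 22 members stayed under 1 FPKM in all libraries. They were Mmp1a, Mmp1b, Mmp10, Mmp13, Mmp15, Mmp16, Mmp17, Mmp20, Mmp21, Mmp27, Timp4, Adamts3, Adamts5, Adamts6, Adamts8, Adamts12, Adamts13, Adamts16, Adamts17, Adamts18, Adamts19 and Adamts20. The highest value among them was 0.991 FPKM, for Adamts6 in OM 0h. FPKM does not give the reads behind a value, so a low value does not show that a gene was absent.

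A cluster of 10 MMP genes on chromosome 9 (Mmp13, Mmp12, Mmp1b, Mmp3, Mmp1a, Mmp10, Mmp8, Mmp27, Mmp20 and Mmp7, chr9:7272514-7699585 in NCBIM37) held both well-detected and nearly silent members, with 4 of the 10 at 1 FPKM or above. AP-1, a dimer of Fos and Jun proteins, is known to bind short sites near the starts of several of these genes, so promoters of the cluster are shown with those of Mmp14 and Timp1, the genes with wide omental differences. They are the 120 bases before the start, 5′ to 3′ on the coding strand, from RefSeq in build GRCm38.p6, which differs from the build of the deposited data, and capitals mark TGANTCA.
Mmp13 promoter, chr9:7272394-7272513, plus strand: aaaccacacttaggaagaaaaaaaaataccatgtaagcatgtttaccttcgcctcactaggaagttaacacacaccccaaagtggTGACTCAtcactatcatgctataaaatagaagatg
Mmp12 promoter, chr9:7347254-7347373, plus strand: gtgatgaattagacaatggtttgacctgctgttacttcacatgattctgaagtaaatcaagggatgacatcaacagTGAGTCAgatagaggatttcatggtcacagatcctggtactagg
Mmp3 promoter, chr9:7445702-7445821, plus strand: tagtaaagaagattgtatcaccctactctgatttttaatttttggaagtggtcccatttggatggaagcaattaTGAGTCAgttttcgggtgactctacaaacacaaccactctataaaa
Mmp10 promoter, chr9:7502222-7502341, plus strand: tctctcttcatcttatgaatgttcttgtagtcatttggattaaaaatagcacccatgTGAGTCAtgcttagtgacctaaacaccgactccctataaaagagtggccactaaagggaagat
Mmp8 promoter, chr9:7558309-7558428, plus strand: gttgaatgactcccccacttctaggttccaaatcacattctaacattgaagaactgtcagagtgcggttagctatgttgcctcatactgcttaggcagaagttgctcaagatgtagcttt
Mmp14 promoter, chr14:54431478-54431597, plus strand: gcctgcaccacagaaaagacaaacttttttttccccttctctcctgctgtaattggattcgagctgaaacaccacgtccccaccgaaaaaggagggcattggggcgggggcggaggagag
Timp1 promoter, chrX:20870046-20870165, plus strand: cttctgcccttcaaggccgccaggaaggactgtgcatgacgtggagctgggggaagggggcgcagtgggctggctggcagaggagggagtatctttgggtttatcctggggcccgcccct
RefSeq promoters of 300 bases, 250 before and 50 after the start, were matched for 32 of 46 members, with 35 promoters in all. The 14 without an entry were Mmp2, Mmp9, Mmp16, Mmp17, Mmp19, Adamts4, Adamts5, Adamts6, Adamts7, Adamts8, Adamts10, Adamts15, Adamts16 and Adamts19.

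The AP-1 letters TGANTCA, which read the same on both strands, were found in 8 of the 35 member promoters, against 7.81% of 32851 promoters of the same length. All 8 belonged to the chromosome 9 cluster (Mmp13, Mmp12, Mmp3, Mmp10, Mmp7, Mmp1a, Mmp1b and Mmp20), with the first base between -95 and -35 from the start. Mmp12 and Mmp7 each had another promoter without the letters, at chr9:7344277-7344396 and chr9:7692221-7692340. For Mmp12, the promoter printed above is the one that holds them. None of these 8 genes exceeded 4.19 FPKM in any library. The cluster genes without these letters in their windows, Mmp8 and Mmp27, reached 79.4 and 0.13 FPKM, so genes without the letters were both high and low. The windows of Mmp14, Mmp11, Timp1, Timp2 and Timp3 did not hold the letters either. The AP-1 genes themselves were at least 2-fold higher in the omentum in 6 of 7 cases in naive mice, against 8.18% of all genes. Among these 6, Fosb passed the filter only through omental libraries. Fos was at 729.8, 1714.6 and 1129.4 FPKM in the omentum and 8.17, 9.52 and 6.37 FPKM in the mesentery. Fos and Jun are also induced by tissue dissociation, and that part was not tested. The PEA3 letters AGGAAG, searched on both strands, were in 16 of 35 member promoters against 35.4% of all, and the TATA letters TATAAA in 11 of 35 against 13.6%. No promoter was measured here, so these matches only describe the sequences.

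Among other genes of pericellular proteolysis, 37 of 51 listed reached 1 FPKM. Of these 37, 16 were at least 2-fold higher in the naive omentum than in the naive mesentery and 4 were lower (8.18% and 8.05% of all genes), while OM 24h had 12 higher and 5 lower than OM 0h (11.9% and 6.45% of all genes), and OM 7d had 7 higher and 0 lower (11.0% and 1.96%). In the mesentery 7 were higher and 2 lower at 24 h (2.80% and 1.52% of all genes), and 1 higher and 2 lower at 7 d (0.498% and 2.29%). Among the 16 higher in the naive omentum, Plat, Pcsk6, Ctsg, Spock3, Eln and Fbn1 passed the filter only through omental libraries. That count therefore leans to the omentum by construction. Vcan, among the 7 higher in OM 7d, reached 1 FPKM only there.

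Of 11 activators tested, among them genes of the plasmin system, which can remove MMP propeptides, 5 were higher and 1 was lower in the naive omentum (8.18% and 8.05% of all genes). Among the 5 higher ones, Plat, Pcsk6 and Ctsg passed the filter only through omental libraries. The lower one, St14 (matriptase), was at 4.28, 2.41 and 4.07 FPKM in the omentum and 11.6, 12.0 and 15.6 FPKM in the mesentery. Plat (tissue plasminogen activator) stood at 6.85, 25.7 and 63.4 FPKM in the omentum and at 0.289, 0.361 and 0.408 FPKM in the mesentery. Plaur, the urokinase receptor, was at 110.6, 107.7 and 80.3 FPKM against 14.5, 20.2 and 21.6 FPKM. The tissues did not overlap in either gene, and 16.7% of all genes were higher in the omentum without overlap. Plau, the urokinase gene, was low, at 0.912, 1.65 and 0.580 FPKM against 0.365, 0.0696 and 0.0775 FPKM, and within 2-fold in naive mice. Elane (neutrophil elastase) was at 118.5, 39.4 and 235.0 FPKM in the omentum, at 1.41 FPKM in MY 0h and listed at 0 in the later mesenteric libraries.

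Genes that bind or clear the proteases followed. Lrp1, an endocytic receptor that takes up MMPs and TIMPs, was at 13.3, 36.3 and 16.0 FPKM in the omentum and 2.42, 8.27 and 2.70 FPKM in the mesentery, highest at 24 h in both. Lcn2, whose product forms a complex with MMP9 in neutrophils, was at 370.1, 798.6 and 723.7 FPKM against 49.5, 19.3 and 2.05 FPKM. Thbs1 (thrombospondin-1) was at 6.08, 42.9 and 23.0 FPKM against 0.602, 2.57 and 0.435 FPKM. The tissues did not overlap in any of the 3, and 16.7% of all genes were higher in the omentum in this way. Reck, a membrane-anchored MMP inhibitor, differed less, at 1.11, 0.755 and 2.36 FPKM in the omentum and 2.64, 1.14 and 2.35 FPKM in the mesentery, with overlap.

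Of the substrates, Fn1 (fibronectin) stood at 94.2, 279.3 and 57.6 FPKM in the omentum and 1.87, 21.4 and 2.99 FPKM in the mesentery, highest at 24 h in both tissues. Eln (elastin) was at 11.0, 9.59 and 63.2 FPKM in the omentum and 0.853, 0.724 and 0.229 FPKM in the mesentery, highest in OM 7d, where the fibroblast list was also highest.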

How the data were processed

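The authors isolated macrophages, sequenced their RNA and deposited FPKM values per gene symbol. Per the labels and the study's methods, reads were checked with FastQC 0.11.4, aligned with STAR 2.4.2a (NCBI37/mm9, UCSC gene annotation) and quantified with Cufflinks 2.2.1. FPKM holds no read counts, so no count model was run.

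From the deposited FPKM, log2(FPKM + 1) was computed with Python 3.11.15, numpy 2.4.6 and pandas 2.3.3, and plotted with matplotlib 3.10.9. The 13064 genes that reached 1 FPKM in any library were examined for a difference of at least 2-fold between libraries. Values listed at 0 were given no fold. Members past this filter were given with their value in each library, and the others were named. The members, marker lists and pathway list were chosen with earlier results of these data known. Family sums add the FPKM of all members. A script for the differences was checked on simulated data. Whether the library kit kept strand is not given in the sources used here, and overlapping genes were found in GENCODE M1 on NCBIM37. Each library is 1 pool of cells, and no p-value was computed. Pseudocounts of 0.1 and 5, 2 other filters, 2 rescalings and the omission of each time were tried.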

Additional observations from a re-analysis of the deposited data

Results flagged for a closer look

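In 5 cases a member moved by at least 1.25-fold in opposite directions in the 2 tissues and by at least 2-fold relative to each other. These differences between tissues were not tested, since each condition had 1 library. Adamts10 at 24 h was 0.42 above OM 0h in the omentum and 1.08 below MY 0h in the mesentery, a difference of 1.5 on the log2(FPKM + 1) scale (omental minus mesenteric change), and at 7 d the changes were 0.52 and -2.17, a difference of 2.69. Mmp23 at 24 h changed by -0.55 in the omentum and 0.76 in the mesentery, a difference of -1.31. At 7 d its changes were 1.49 and -0.48, a difference of 1.97, so its direction was opposite between the tissues at both times and turned between them. Mmp7 at 24 h changed by -0.87 in the omentum and 0.37 in the mesentery, a difference of -1.24.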

How the results depend on the processing

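Of 106 summary values recomputed, 77 stayed within the tolerance (1.5 times for a count, 0.58 for a log2 median) and 29 moved. Medians under 2-fold changed sign in 3 cases, under the filter on all 6 libraries in OM 7d against OM 24h (0.17 to -0.71) and MY 7d against MY 0h (-0.03 to 0.12), and with members above 0 in MY 24h against MY 0h (0.07 to -0.0038). With a pseudocount of 0.1, the members at least 2-fold apart numbered 19 of 24 in OM 0h against MY 0h, 15 in OM 24h against OM 0h and 4 in MY 24h against MY 0h, and the medians were 1.31 in OM 0h against MY 0h, 2.24 in OM 24h against MY 24h and 3.01 in OM 7d against MY 7d. With a pseudocount of 5, the numbers were 6 in OM 0h against MY 0h, 5 in OM 7d against OM 0h, 4 in OM 7d against OM 24h, 0 in MY 24h against MY 0h, 8 in OM 24h against MY 24h and 9 in OM 7d against MY 7d, the medians of the last 2 were 0.37 and 0.40, and 2 members were apart in every library pair. With the limit of 1 FPKM set on all 6 libraries, which leaves 9 members, they were 7 in OM 0h against MY 0h, 5 in OM 24h against OM 0h (median 1.03), 2 in OM 7d against OM 0h, 3 in OM 7d against OM 24h (median -0.71), 7 in OM 24h against MY 24h, 6 in OM 7d against MY 7d and 2 in every library pair. With members above 0 in at least 1 library, the medians were 0.12 in OM 24h against MY 24h and 0.55 in OM 7d against MY 7d. In every library pair, 11 members were apart without the 0h libraries and 8 without the 7d libraries. Between the tissue means of the 3 time points, a weaker measure, 16 were apart, 12 higher and 4 lower in the omentum. Rescaling to a sum of 1000000 moved the median of all genes by up to 0.36 (OM 7d against OM 24h), and under it 16 calls of single members were gained, 6 values under 2-fold changed sign and 4 calls were lost, those of Mmp8 in OM 24h against OM 0h (0.84) and in OM 7d against OM 24h (-0.81), of Mmp9 in MY 24h against MY 0h (0.97) and of Mmp2 in OM 24h against MY 24h (0.86). No paired analysis was possible because no condition had more than 1 library to number. A fit of the tissues blocked by time, whose spread would be between times and not between replicates, was not run. With FPKM alone, the reads behind low values cannot be told, which limits every member near 1 FPKM.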

Other observations

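The ADAM proteases, membrane-anchored relatives of the ADAMTS family that shed cell-surface proteins, differed by gene between the tissues. Of 10 that reached 1 FPKM, 1 was at least 2-fold higher and 3 were lower in the naive omentum than in the naive mesentery (8.18% and 8.05% of all genes). Adam15 stood at 55.4, 137.5 and 32.0 FPKM in the omentum and at 5.30, 14.3 and 5.03 FPKM in the mesentery. Adamdec1, a secreted relative, was the reverse, listed at 0 in OM 0h and at 1.42 and 0.945 FPKM in the later omental libraries, against 7.37, 33.5 and 23.5 FPKM in the mesentery. Adam23 was at 6.51, 1.54 and 3.92 FPKM in the omentum and 24.6, 30.8 and 21.4 FPKM in the mesentery, and Adam8, known from myeloid cells, was at 29.9, 47.0 and 30.1 FPKM against 75.9, 114.4 and 59.9 FPKM. None of these 4 genes, described out of the 10, overlapped between the tissues. Of all genes, 16.7% were higher and 17.7% lower in the omentum without overlap.

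Among the other inhibitors, Slpi, an inhibitor of neutrophil serine proteases, was highest at 24 h in both tissues, at 51.6, 173.0 and 58.8 FPKM in the omentum and 41.2, 95.4 and 82.0 FPKM in the mesentery. Serpinb2, an inhibitor of urokinase, was at 0.154, 3.68 and 2.64 FPKM in the omentum and 0.108, 2.85 and 1.05 FPKM in the mesentery, again highest at 24 h in both.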
